A study of Homo sapiens with 6 samples.

Results

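The comparison described here set 2 samples of SETD2-mutant HAP1 cells against 2 samples of parental HAP1 cells, which are 4 of the 6 samples of a pooled CRISPR knockout screen; the other 2 are samples of the guide library. The samples were chosen by the genotype in their labels, Parental or SETD2-mutant, and every guide with a mean library count of at least 30 was used, which left 7090 genes with 3 or more guides. HAP1 is a near-haploid human line derived from a chronic myeloid leukaemia, so that 1 cut can remove a gene's only copy. Both lines carried the same guide library, received virus at a multiplicity of infection of 0.7 for 48 h, and were then divided into replicates and kept in puromycin for 12 doublings. The SETD2-mutant group is a single genotype, the labels give neither its allele nor its number of clones, and the replicates of a line share a transduction. The p-values given for genes measure how far a gene's guides agree in rank among all guides, ranked by a test on these samples. They do not measure the spread between independent lines or transductions. A trait of the line other than its SETD2 genotype cannot be told apart from the genotype. How the library samples were taken is not stated in the labels.

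In such a screen most transduced cells carry a guide that cuts 1 gene, and the guide's share of the culture falls when loss of that gene slows growth and rises when loss is favourable. SETD2 places trimethylation on lysine 36 of histone H3 (H3K36) behind elongating RNA polymerase II, and it is lost in several cancers, clear cell renal carcinoma among them. The lower methylation states of the same lysine are placed by the NSD family, of which NSD1 is a member. H3K36 methylation is known to hinder PRC2, the complex that methylates lysine 27 of H3, and it recruits proteins with PWWP, chromo or Tudor domains.

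Values are given on 2 scales. The change from library is the mean over a gene's guides of log2 CPM (counts scaled to a common library total) minus the library mean, given for each sample. The difference between the lines is the mean over guides of the edgeR log2 fold change, SETD2-mutant minus parental, with the standard error (SE) over guides. Genes were called at an adjusted p below 0.05 from edgeR per guide and robust rank aggregation (RRA) over guides, adjusted over all 7090 genes for depletion and for enrichment separately. A gene called depleted in the SETD2-mutant line had fewer of its guides there than in the parental line relative to all other genes, and an enriched gene had more. The sequences of the guides are not in the files used here, so guides are given by ID.

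The 4 cell samples held between 25082426 and 38197301 counts, with a median of 284 to 466 counts per guide over the 6 samples. Replicates differed by a median of 0.0867 (parental) and 0.0995 (SETD2-mutant) in a gene's log2 change, and the differences between the lines had a Pearson correlation of 0.781 across genes between the replicate numbers; genes are not independent replicates. Guide counts come from DNA and carry no expression markers, so the identity of the line was not checked here. The 66 genes used as essential-gene anchors had a median change from library of −3.376 in parental and −3.749 in SETD2-mutant samples, so dropout was somewhat deeper in the mutant line. The 100 guides labelled dummyguide averaged 0.67 and 0.65 in parental and 0.83 and 0.86 in SETD2-mutant samples, so every change is relative to the other genes and its zero moves with the scaling: scaled on these guides, the median difference of all genes was −0.185 in place of −0.038.

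Between the lines, 91 genes were depleted (1.28% of the genes tested) and 73 were enriched (1.03%) in SETD2-mutant cells. These shares of all genes are the background for the counts of called genes in each list below. In each of the 91 depleted genes both SETD2-mutant samples lay below both parental samples, which 38.9% of all genes tested did; in each of the 73 enriched genes they lay above, which 26.9% of all genes did. The groups of guide IDs with the letters EPI and MET held most of the calls for their size. Of 816 EPI genes, 36 were depleted (4.41%) and 26 enriched (3.19%), and of 384 MET genes 14 were depleted and 14 enriched (3.65% each). The largest class, SRF with 3982 genes, had 22 depleted (0.552%) and 6 enriched (0.151%). The lines were also set to equal dropout of the essential genes, in a fit by limma per guide in place of edgeR. It gave 65 depleted and 100 enriched genes, and depleted genes made up 39.4% of the calls. Limma per guide without this step gave 84 and 75 (52.8% depleted), and edgeR 55.5%. All values below at equal essential-gene dropout come from limma, so they differ from the edgeR values in estimator as well as scaling.

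**Figure D1:**
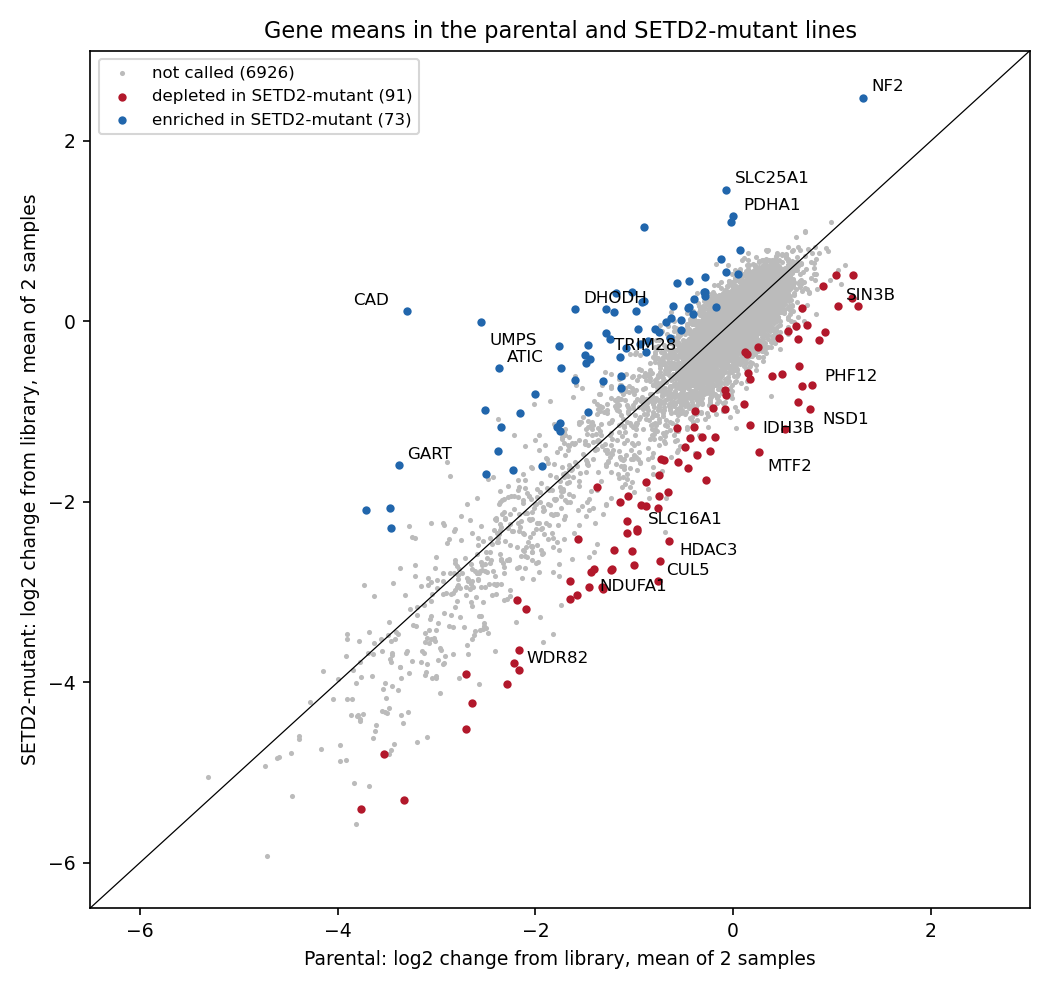
Mean log2 change from library of each of the 7090 genes in parental samples (x axis, mean of 2 samples) and SETD2-mutant samples (y axis, mean of 2 samples); the line marks equal change, red points are the 91 depleted and blue points the 73 enriched genes. CAD and UMPS, among the enriched genes, stood far below 0 in parental cells and near 0 in SETD2-mutant cells, while NSD1, PHF12 and SIN3B stood above 0 in parental cells.

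NSD1 (chromosome 5, 177131798 to 177300213 in the RefSeq table of GRCh38) was the depleted gene with the third lowest RRA p. Its change from library was 0.75 and 0.82 in parental samples, against −0.95 and −0.98 in SETD2-mutant samples. The lines did not overlap, as in every called gene. The difference was −1.77 (SE 0.264), a 3.4-fold lower abundance, and each of the 10 guides was down (adjusted p = 8.82e-09 by edgeR and RRA). The guides ranged from −3.15 to −0.27. Guide HZD_EPI_04751, near the middle of that range, went from 820 and 755 library counts to 1650 and 1806 in parental samples and to 288 and 468 in SETD2-mutant samples. The guide with the largest difference, HZD_EPI_04746, went from 798 and 747 library counts to 1282 and 1930 parental and 140 and 161 SETD2-mutant counts. HZD_EPI_04752, the guide with the smallest difference, had 447 and 402 library counts, 641 and 580 parental counts and 354 and 484 SETD2-mutant counts.

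SETD2 itself (chromosome 3, 47016436 to 47164840) was the other H3K36 methyltransferase called of the 8 measured. Its change from library was −1.08 and −1.17 in parental and −0.64 and −0.58 in SETD2-mutant samples, without overlap, as in every called gene. The difference was 0.5 (SE 0.216), with 8 of 10 guides up (edgeR with RRA, adjusted p = 0.00626), and the call was lost without SETD2-mutant replicate 2 (0.47, adjusted p = 0.0789). The guides did not behave alike. HZD_EPI_06212 went from 1267 and 1130 library counts to 810 and 817 in the parental line but stood at 1629 and 1983 in the mutant line. HZD_EPI_06209, in contrast, went from 774 and 690 to 93 and 55 in the parental line and to 49 and 50 in the mutant line, and HZD_EPI_06210 went from 1409 and 1327 to 420 and 184 and to 115 and 130. These last guides were the 2 of 10 that were not up between the lines. Guide abundance reads the fitness effect of cutting SETD2 and not the genotype, so it is no direct check of the label. NSD3, listed in the table as WHSC1L1, stood at −0.29 and was not called.

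**Figure D2:**
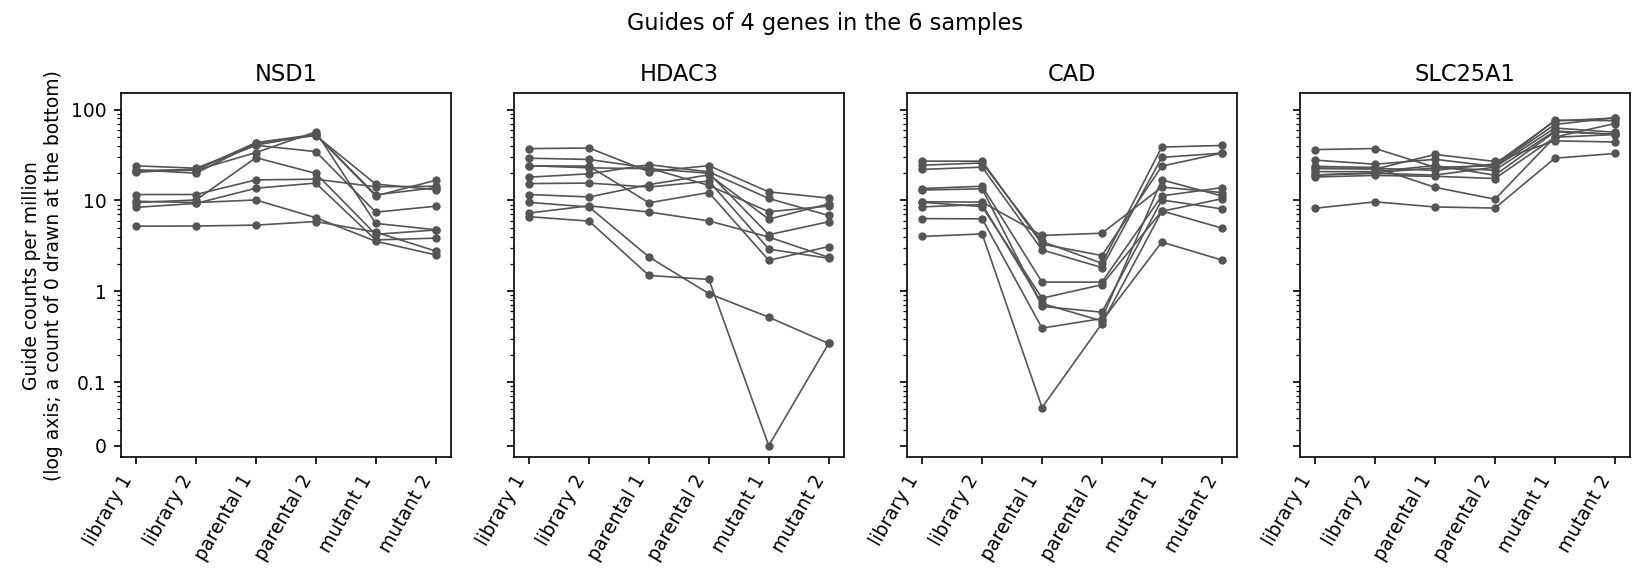
CPM of each guide (log axis, 1 line per guide, a count of 0 drawn at the bottom) of NSD1, HDAC3, CAD and SLC25A1 in the 2 library, 2 parental and 2 SETD2-mutant samples. Most NSD1 guides stood above their library level in parental and below it in SETD2-mutant samples, HDAC3 guides stood lowest in SETD2-mutant samples, CAD guides stood far below the library in parental samples and near it in SETD2-mutant samples, and SLC25A1 guides stood highest in SETD2-mutant samples.

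Chromatin regulators of several complexes were depleted. The deacetylase HDAC3, which gives NCoR and SMRT corepressors their enzyme activity, stood at −0.57 and −0.73 in parental and −2.51 and −2.36 in SETD2-mutant samples. Its difference was −1.79 (SE 0.235, 10 of 10 guides down, adjusted p = 1.85e-06). The corepressor NCOR1 stood at −0.2 and was not called. HDAC3 guides were already below the library in parental cells and lower still in SETD2-mutant cells. MTF2, a PRC2 accessory subunit that binds unmethylated CpG-rich DNA and has a Tudor domain, stood at 0.2 and 0.31 in parental and −1.56 and −1.35 in SETD2-mutant samples. It differed by −1.71 (SE 0.25, 10 of 10 guides down, adjusted p = 3.52e-07).

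Most other PRC2 genes were not called. Of 11 measured PRC2 genes, 2 were depleted and 0 enriched, with a median of −0.14 beside −0.038 for all genes. Between the lines the catalytic subunit EZH2 stood at 0.63 and the core subunit EED at 0.41, and the accessory subunit AEBP2 stood at 0.53; none of these was called. The other depleted member was RBBP4, a histone chaperone shared with many complexes, at −0.98 (SE 0.66, adjusted p = 0.0417). It was no longer called without SETD2-mutant replicate 1 (0.446), SETD2-mutant replicate 2 (0.326) or parental replicate 1 (0.116), by the same test.

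PHF12, SIN3B and GATAD1, subunits of a SIN3B-containing deacetylase complex, were depleted together and each stood above the library in parental samples. PHF12 stood at 0.7 and 0.89 in parental and −0.79 and −0.62 in SETD2-mutant samples, a difference of −1.51 (SE 0.281, adjusted p = 9.51e-07). SIN3B, the scaffold, stood at 1.03 and 1.08 in parental and 0.22 and 0.12 in SETD2-mutant samples, a difference of −0.89 (SE 0.138, adjusted p = 9.59e-05). GATAD1, which accompanies the H3K4 demethylase KDM5A, differed by −0.7 (SE 0.135, adjusted p = 0.00903 by edgeR and RRA), a call that was lost without SETD2-mutant replicate 1 (0.0589). In none of the 3 genes did the lines overlap, as in every called gene. Of 18 measured genes of SIN3 complexes 3 were depleted and 1 enriched, and the median of −0.05 turned to 0.13 at equal essential-gene dropout.

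The paralogous acetyltransferases EP300 and CREBBP were called in opposite directions. EP300 stood at 0.51 and 0.47 in parental and −0.51 and −0.65 in SETD2-mutant samples, a difference of −1.07 (SE 0.119, 10 of 10 guides down, adjusted p = 5.07e-06 by edgeR and RRA). CREBBP stood at −1.55 and −1.66 in parental and −0.63 and −0.67 in SETD2-mutant samples, a difference of 0.94 (SE 0.272, 8 of 10 guides up, adjusted p = 1.41e-06). In parental samples EP300 guides stood above and CREBBP guides below the library, and in SETD2-mutant samples both genes stood between −0.67 and −0.51. Of the 11 measured acetyltransferases these were the 2 called.

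SETDB1, which methylates lysine 9 of H3, and ATF7IP, the partner that stabilises it, were both depleted. SETDB1 stood at 0.96 and 0.77 in parental and −0.24 and −0.17 in SETD2-mutant samples and differed by −1.12 (SE 0.237, adjusted p = 0.0052). ATF7IP stood at 1.15 and 1.25 in parental and 0.19 and 0.32 in SETD2-mutant samples and differed by −0.95 (SE 0.243, adjusted p = 0.000347). TRIM28, the corepressor that brings SETDB1 to KRAB zinc finger proteins, went the other way. It stood at −1.23 and −1.35 in parental and at −0.13 in each SETD2-mutant sample, a difference of 1.16 (SE 0.12, 10 of 10 guides up; edgeR and RRA gave an adjusted p of 2.91e-13).

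Transcription elongation factors also split. DOT1L, the H3K79 methyltransferase, stood at 0.93 and 0.92 in parental and −0.19 and −0.05 in SETD2-mutant samples, a difference of −1.04 (SE 0.207, adjusted p = 0.000125). The PAF1 complex, which travels with RNA polymerase II, had 2 subunits enriched. LEO1 stood at −0.99 and −0.96 in parental and 0.08 and 0.16 in SETD2-mutant samples, a difference of 1.1 (SE 0.199, adjusted p = 9.6e-08), and CDC73 at −2.56 and −2.44 against −1.65 and −1.73, a difference of 0.84 (SE 0.245, adjusted p = 0.000273). The subunit PAF1 stood at 0.45 and was not called. CDC73 guides stood below the library in both lines, whereas LEO1 guides stood slightly above it in SETD2-mutant cells.

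Further depleted chromatin genes kept their call in each of the 18 alternatives based on RRA. CARM1, an arginine methyltransferase, stood at −0.35 and −0.38 in parental and −1.4 and −1.57 in SETD2-mutant samples (difference −1.11, SE 0.234). EPC2, of the NuA4 acetyltransferase complex, stood at 0.28 and 0.51 against −0.63 and −0.58 (difference −1.02, SE 0.195). WDR82, a subunit of the SET1 H3K4 methyltransferase complexes and of a phosphatase complex, stood at −2.18 and −2.16 against −3.99 and −3.74 (difference −1.67, SE 0.438). WDR82 and CARM1 guides stood below the library in both lines, and EPC2 guides in the SETD2-mutant line alone. From edgeR and RRA came an adjusted p of 0.000142, 0.00104 and 0.00212, in turn, for CARM1, EPC2 and WDR82.

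SAGA, a coactivator with an acetyltransferase module and a module that removes ubiquitin from histone H2B, had 7 of 14 measured genes enriched and 0 depleted. Its median was 0.41 between the lines, and 9 of 14 genes had both SETD2-mutant samples above both parental samples (26.9% of all genes tested). USP22, the deubiquitinase, stood at −1.04 and −1.01 in parental and 0.42 and 0.25 in SETD2-mutant samples, a difference of 1.36 (SE 0.151, 10 of 10 guides up, adjusted p = 2.19e-10). The core subunit TAF5L stood at −1.09 and −1.41 against −0.23 and −0.16, a difference of 1.05 (SE 0.12, adjusted p = 2.5e-06). Its partner TAF6L stood at −1.42 and −1.58 against −0.36 and −0.37, a difference of 1.13 (SE 0.229, adjusted p = 0.00363). Guides of these 3 genes stood below the library in parental samples and closer to it, or above it, in SETD2-mutant samples.

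TADA2B, of the acetyltransferase module, stood at −0.52 and −0.62 in parental and 0.38 and 0.49 in SETD2-mutant samples (difference 1.0, SE 0.103). TADA1, of the core, stood at −1.5 and −1.4 against −0.36 and −0.49 (difference 1.05, SE 0.326). By edgeR with RRA, TADA2B had an adjusted p of 3.34e-06 and TADA1 of 3.79e-06. ATXN7, which anchors the deubiquitinase module, differed by 0.62 and the core subunit SUPT7L by 0.47, and without SETD2-mutant replicate 2 both lost their call (adjusted p = 0.144 and 0.0887). Not every subunit moved this way. TRRAP, which SAGA shares with NuA4, stood at −0.78 and the deubiquitinase subunit ATXN7L3, which also serves other deubiquitinases, at −0.7, and neither was called; TADA3 stood at 0.22 and SUPT3H at 0.35.

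Of 21 measured SWI/SNF remodeller genes 1 was enriched and 1 depleted, with a median of 0.03. SMARCB1, a SWI/SNF core subunit, stood at −0.76 and −0.81 in parental and −0.14 and −0.02 in SETD2-mutant samples, a difference of 0.71 (SE 0.182, adjusted p = 2.12e-06). ACTL6A, an actin-related subunit, stood at −2.69 and −2.72 against −4.84 and −4.2, a difference of −2.33 (SE 0.536, adjusted p = 0.0115 by edgeR and RRA). Its call was lost in 9 of the 18 alternatives based on RRA. Among them were limma per guide (−1.82, adjusted p = 0.0932 with RRA) and equal essential-gene dropout, also by limma (−1.37, adjusted p = 0.262). It was lost too without SETD2-mutant replicate 1 (−2.14) and without parental replicate 2 (−2.19). Outside the list, ACTB, which is both cytoskeletal actin and a remodeller subunit, differed by 1.13 (SE 0.353, adjusted p = 0.000718). The Mediator subunit MED1 stood at −1.19 and −1.2 against 0.06 and 0.14, a difference of 1.31 (SE 0.248, adjusted p = 0.000726), and CDK8, the kinase of the Mediator kinase module, at −0.06 and −0.18 against 0.74 and 0.64, a difference of 0.82 (SE 0.107, adjusted p = 2.93e-05). KMT2C, an H3K4 methyltransferase, differed by 0.43 (SE 0.29), PHF23 by 0.88 (SE 0.162) and the PHD finger protein PHF6 by 0.46 (SE 0.0823). Their adjusted p by edgeR and RRA was 0.000669, 0.000981 and 0.00256.

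**Figure D3:**
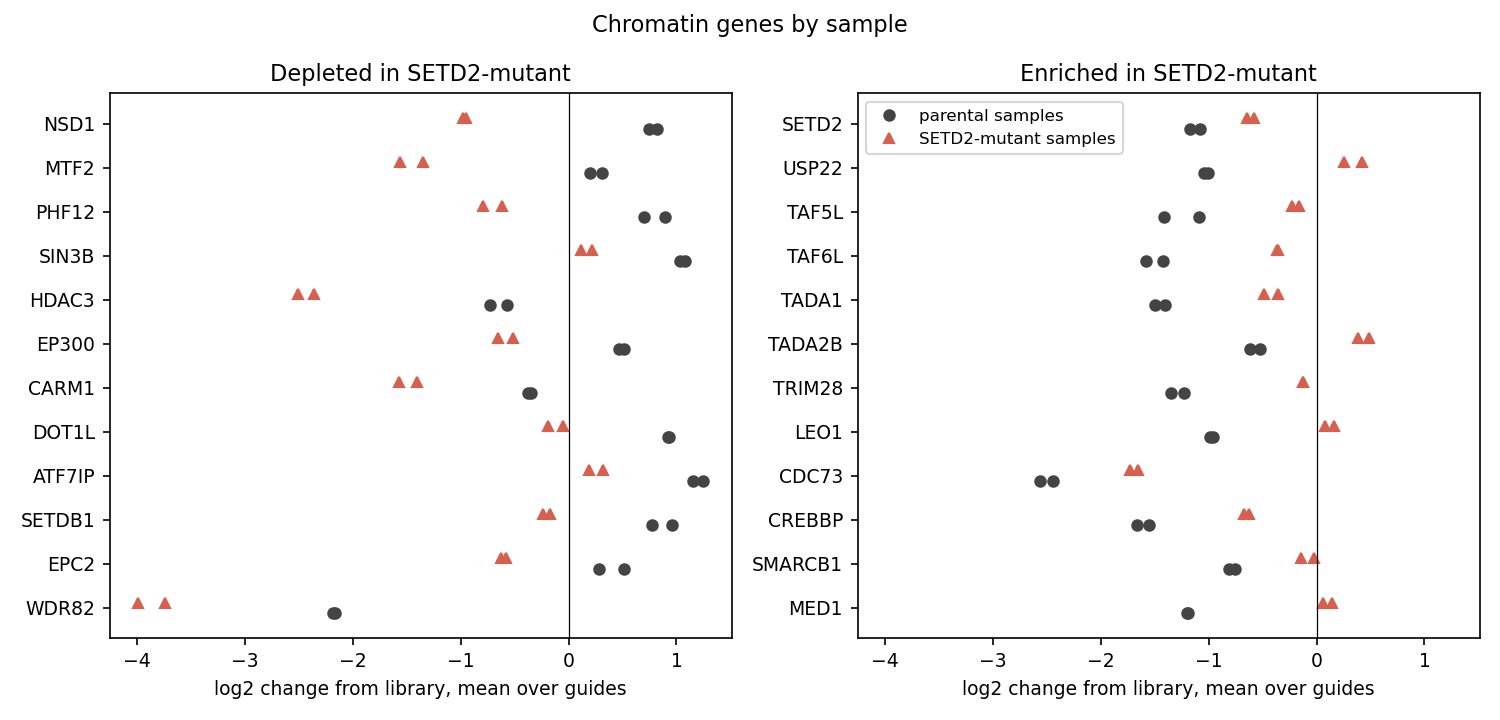
Log2 change from library (mean over guides) of 12 depleted and 12 enriched chromatin genes in each of the 2 parental (circles) and 2 SETD2-mutant (triangles) samples. Each gene shown was called, and in every called gene the lines did not overlap. Of all genes tested, 38.9% had both SETD2-mutant samples below both parental samples and 26.9% had them above. Of the 12 depleted genes shown, 9 lay above 0 in both parental samples.

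Mitochondrial genes were depleted above all in respiratory complex I, which oxidises NADH and passes its electrons into the respiratory chain. Of 18 measured complex I subunits and assembly factors 9 were depleted and 0 enriched, and the median was −1.22. In 17 of the 18 both SETD2-mutant samples lay below both parental samples, beside 38.9% of all genes tested. The median change from library went from −1.15 in parental to −2.32 in SETD2-mutant samples, so its guides were below the library in both lines. ACAD9, an assembly factor, stood at −1.33 and −1.12 in parental and −2.93 and −2.55 in SETD2-mutant samples, a difference of −1.52 (SE 0.173, adjusted p = 1.85e-06). FOXRED1, another assembly factor, stood at −0.71 and −0.6 in parental and at −1.89 in each SETD2-mutant sample, a difference of −1.25 (SE 0.194, adjusted p = 0.000125). For both genes all 10 guides were down and the lines were far apart.

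Among the subunits, NDUFA1 stood at −1.51 and −1.38 in parental and −2.82 and −2.74 in SETD2-mutant samples (difference −1.33, SE 0.234, adjusted p = 0.000125). NDUFA2 differed by −1.35 (SE 0.291), NDUFA3 by −1.19 (SE 0.334) and NDUFA11 by −1.37 (SE 0.49), with an adjusted p by edgeR and RRA of 0.00199, 0.0021 and 0.0102. These 4 subunits were called in each of the 18 RRA alternatives. NDUFC2 had the largest difference of the list, −1.85 (SE 0.389), and stood at −1.33 and −1.32 in parental and −2.97 and −2.9 in SETD2-mutant samples (adjusted p = 0.000445); its call was lost when the RRA limit was 0.1 (0.244). Uncalled subunits lay on the same side, with NDUFB6 at −1.63 and NDUFA13 at −1.16.

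The list of the other respiratory complexes did not share that pattern. Of its 25 measured genes of complexes II to V 2 were depleted and 2 enriched, and the median was −0.13, and 0.04 at equal essential-gene dropout. Outside this list, COX7A2L (−1.11, adjusted p = 0.00212) and COX18 (−0.83, adjusted p = 0.0121) were depleted by edgeR and RRA. COX7A2L kept its call in 17 and COX18 in 10 of the 18 RRA alternatives. COX4I1, of complex IV, stood at −1.41 and −1.23 in parental and −3.04 and −2.89 in SETD2-mutant samples, a difference of −1.62 (SE 0.309, adjusted p = 0.000768). SDHB, the iron-sulphur subunit of complex II, which takes electrons from succinate and bypasses complex I, went the other way. It stood at −2.34 and −1.98 in parental and −0.94 and −1.08 in SETD2-mutant samples, a difference of 1.16 (SE 0.223, adjusted p = 0.000459 by edgeR and RRA). SDHD, the other enriched gene of the list and also of complex II, differed by 0.32 (SE 0.251, adjusted p = 0.0182 by edgeR and RRA). It kept its call in 11 of the 18 RRA alternatives. SDHC, which anchors complex II, stood at 0.73 and SDHA, its flavoprotein, at 0.69, and neither was called.

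Citric acid cycle genes split by enzyme. The mitochondrial isocitrate dehydrogenase, which makes NADH, is built from IDH3A, IDH3B and IDH3G. IDH3B, the depleted gene with the lowest RRA p, stood at 0.17 in each parental sample and at −1.2 and −1.09 in SETD2-mutant samples, a difference of −1.31 (SE 0.115, 10 of 10 guides down, adjusted p = 2.91e-09). IDH3A stood at −1.03 and −1.01 against −2.54 and −2.56, a difference of −1.54 (SE 0.361, adjusted p = 0.000902). IDH3G stood at −0.71 and was not called.

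Steps that feed citrate and close the cycle were enriched in the same list, in which 4 of 28 genes were enriched and 3 depleted around a median of −0.07. The pyruvate dehydrogenase subunit PDHA1 stood at −0.01 and 0.0 in parental and 1.18 and 1.16 in SETD2-mutant samples, a difference of 1.18 (SE 0.128, adjusted p = 3.63e-10). PDHB, its partner, stood at 0.0 and −0.04 against 1.18 and 1.02, a difference of 1.13 (SE 0.145, adjusted p = 4.87e-07). DLAT, the transacetylase of the same complex, stood at 0.02 and 0.13 against 0.83 and 0.75, a difference of 0.71 (SE 0.19, adjusted p = 5.84e-05). Guides of these 3 subunits thus stood at library level in parental cells and above it in SETD2-mutant cells.

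Malate dehydrogenase MDH2 stood at −0.31 and −0.25 in parental and 0.54 and 0.45 in SETD2-mutant samples, a difference of 0.78 (SE 0.137, adjusted p = 0.000669). SLC25A1, the carrier that exports citrate from mitochondria, had the lowest RRA p of all genes. It stood at −0.03 and −0.11 in parental and 1.42 and 1.49 in SETD2-mutant samples, a difference of 1.53 or 2.89-fold (SE 0.139, 10 of 10 guides up; edgeR and RRA gave an adjusted p of 1.45e-20). Citrate synthase CS stood at 0.59, the mitochondrial pyruvate carrier subunit MPC1 at 0.62 and the oxoglutarate dehydrogenase OGDH at 0.79, and none of these was called.

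Further depleted mitochondrial genes serve transport and gene expression. VDAC1, the outer membrane channel, stood at −0.97 and −0.8 in parental and −2.22 and −1.88 in SETD2-mutant samples, a difference of −1.16 (SE 0.224, adjusted p = 0.000125). TMEM11, of the inner membrane, stood at −0.69 and −0.83 against −2.13 and −2.0, a difference of −1.31 (SE 0.246, adjusted p = 0.000125). Its call was lost without SETD2-mutant replicate 2 (0.063), without parental replicate 1 (0.132) and at an RRA limit of 0.1 (0.556), again by edgeR and RRA. Both genes stood below the library in each line and lower in the mutant line. MTO1, which modifies mitochondrial transfer RNAs, differed by −1.25 (SE 0.278, adjusted p = 0.00232). MPV17, an inner membrane protein needed to maintain mitochondrial DNA, stood at 0.69 and 0.65 against −0.47 and −0.52. Its fitted difference of −1.57 rests on 1 guide without counts in both SETD2-mutant samples, and its difference of mean changes was −1.16 (adjusted p = 0.000744 by edgeR and RRA). NME6, of the nucleoside diphosphate kinase family, stood at −0.97 and −1.03 against −2.7 and −2.69, a difference of −1.73 (SE 0.314, adjusted p = 4.31e-06), and was the 1 gene depleted of 14 in its list.

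In the list of glycolysis and lactate export 1 of 20 genes was depleted and 0 were enriched. SLC16A1, the proton-coupled transporter that exports lactate, stood at −1.0 and −0.94 in parental and −2.47 and −2.16 in SETD2-mutant samples, a difference of −1.33 (SE 0.146, 10 of 10 guides down, adjusted p = 7.53e-09 by edgeR and RRA). The list's median was −0.42, and −0.17 at equal essential-gene dropout. The other 19 members were uncalled by edgeR and RRA. Differences of the glycolytic enzymes ranged from the enolase ENO1 at −1.53 to the hexokinase HK1 at 0.09, with HK2 at −1.05, the phosphofructokinase PFKP at −0.73, the pyruvate kinase PKM at 0.05 and the lactate dehydrogenase LDHA at 0.02. BSG, the chaperone of SLC16A1, differed by 0.21.

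De novo pyrimidine synthesis held the largest enrichment of the screen. CAD, which carries out the first reactions, stood at −3.32 and −3.27 in parental and 0.15 and 0.06 in SETD2-mutant samples, a difference of 3.45 or 10.9-fold (SE 0.354, adjusted p = 6.12e-16). UMPS, which forms UMP, stood at −2.26 and −2.84 against −0.05 and 0.03, a difference of 2.54 or 5.82-fold (SE 0.358, adjusted p = 4.74e-13). DHODH, the mitochondrial step between them, stood at −1.49 and −1.72 against 0.17 and 0.1, a difference of 1.74 or 3.33-fold (SE 0.0977, adjusted p = 1.27e-12). Guides of the 3 enzymes stood far below the library in parental cells and at library level in SETD2-mutant cells, and all 10 guides of each were up between the lines. They were the 3 enriched of 7 measured genes in the list, whose median was 0.06 and −0.09 with dummyguide scaling; the uncalled kinase CMPK1, which acts after UMP, stood at −0.33. Of 9 measured genes of pyrimidine salvage and uptake, edgeR and RRA called 0, 0 had an unadjusted RRA p below 0.05 in either direction, and limma on gene means found 1 lower and 0 higher.

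De novo purine synthesis had 5 of 11 measured genes enriched and 0 depleted, with a median of 1.07. In 9 of 11 both SETD2-mutant samples lay above both parental samples, beside 26.9% of all genes tested. ATIC, which closes the purine ring, stood at −2.38 and −2.36 in parental and −0.51 and −0.54 in SETD2-mutant samples, a difference of 1.87 (SE 0.238, adjusted p = 1.4e-08). GART, which acts at 3 steps, stood at −3.24 and −3.52 against −1.65 and −1.54, a difference of 1.94 (SE 0.523, adjusted p = 0.011). ADSS2, listed as ADSS, which leads from IMP towards AMP, stood at −2.37 and −2.33 against −1.25 and −1.08, a difference of 1.21 (SE 0.159, adjusted p = 0.000669). Unlike the pyrimidine enzymes, these genes still stood below library level in SETD2-mutant cells. PFAS differed by 1.07 (SE 0.503, adjusted p = 0.00188), and PAICS by 1.74 (SE 0.318, adjusted p = 0.00308), a call lost without SETD2-mutant replicate 2 (1.31, adjusted p = 0.153 by edgeR and RRA). ADSL stood at 1.2 and IMPDH2, which leads towards GMP, at 1.01, and neither was called.

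Folate one-carbon metabolism, which supplies purine and thymidylate synthesis, had 4 of 15 genes enriched and 0 depleted, with a median of 0.21. Of all genes tested 1.03% were enriched. MTHFD1, the cytosolic enzyme that makes formyl-tetrahydrofolate, stood at −2.62 and −2.4 in parental and −1.08 and −0.88 in SETD2-mutant samples, a difference of 1.54 (SE 0.311, adjusted p = 0.0016). FPGS, which traps folates in the cell by adding glutamates, stood at −1.66 and −1.82 against −0.52 and −0.53, a difference of 1.26 (SE 0.308, adjusted p = 2.05e-05). The mitochondrial enzymes MTHFD1L and MTHFD2 differed by 0.91 (SE 0.151) and 0.7 (SE 0.175), with an adjusted p by edgeR and RRA of 0.00287 and 0.00777. MTHFD2 lost its call without SETD2-mutant replicate 1 (difference 0.66), parental replicate 1 (0.65) or parental replicate 2 (0.76). MTHFD1L lost its call when centred on its 40 neighbours along the chromosome (0.79, adjusted p = 0.0592 by limma per guide and RRA). SLC25A32, the mitochondrial folate carrier, stood at 0.74 and was not called.

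The pentose phosphate pathway yields NADPH and the ribose of nucleotides. TKT, of its non-oxidative branch, stood at −3.5 and −3.44 in parental and −2.09 and −2.04 in SETD2-mutant samples, a difference of 1.44 with an SE of 0.299 and an adjusted p of 0.0201 from edgeR and RRA, and all 10 of its guides were higher. This call was lost without SETD2-mutant replicate 2 (0.0887), without parental replicate 1 (0.0548) and with only the 2 lines in the fit (0.105). PGD, which yields NADPH, stood at −1.19 and PGLS at −0.48, both uncalled.

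Among NAD synthesis and salvage genes 2 of 9 were enriched, beside 1.03% of all genes tested, and 0 depleted, with a median of 0.34. NAMPT, which recycles nicotinamide, stood at −1.16 and −1.43 in parental and 0.1 and 0.18 in SETD2-mutant samples, a difference of 1.44 (SE 0.234, adjusted p = 1.24e-07). NMNAT1, the nuclear enzyme that completes NAD, stood at −1.02 and −0.78 against 0.15 and 0.31, a difference of 1.13 (SE 0.236, adjusted p = 7.52e-05). The other members were uncalled and ranged from −0.46 for NMNAT3, the mitochondrial counterpart of NMNAT1, to 0.62 for the NAD kinase NADK. Outside this list, RFK, which makes the flavin cofactor FMN, differed by 0.72 (SE 0.312, adjusted p = 8.22e-05), and AMD1, of polyamine synthesis, stood at −2.02 and −1.99 against −0.84 and −0.79, a difference of 1.23 (SE 0.27, adjusted p = 0.00236). ITPK1, an inositol phosphate kinase, stood at −1.28 and −1.09 against 0.34 and 0.29, a difference of 1.5 (SE 0.242, adjusted p = 9.6e-08 by edgeR and RRA), and was the 1 gene enriched of 6 in its list, in which IPMK stood at 0.48.

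**Figure D4:**
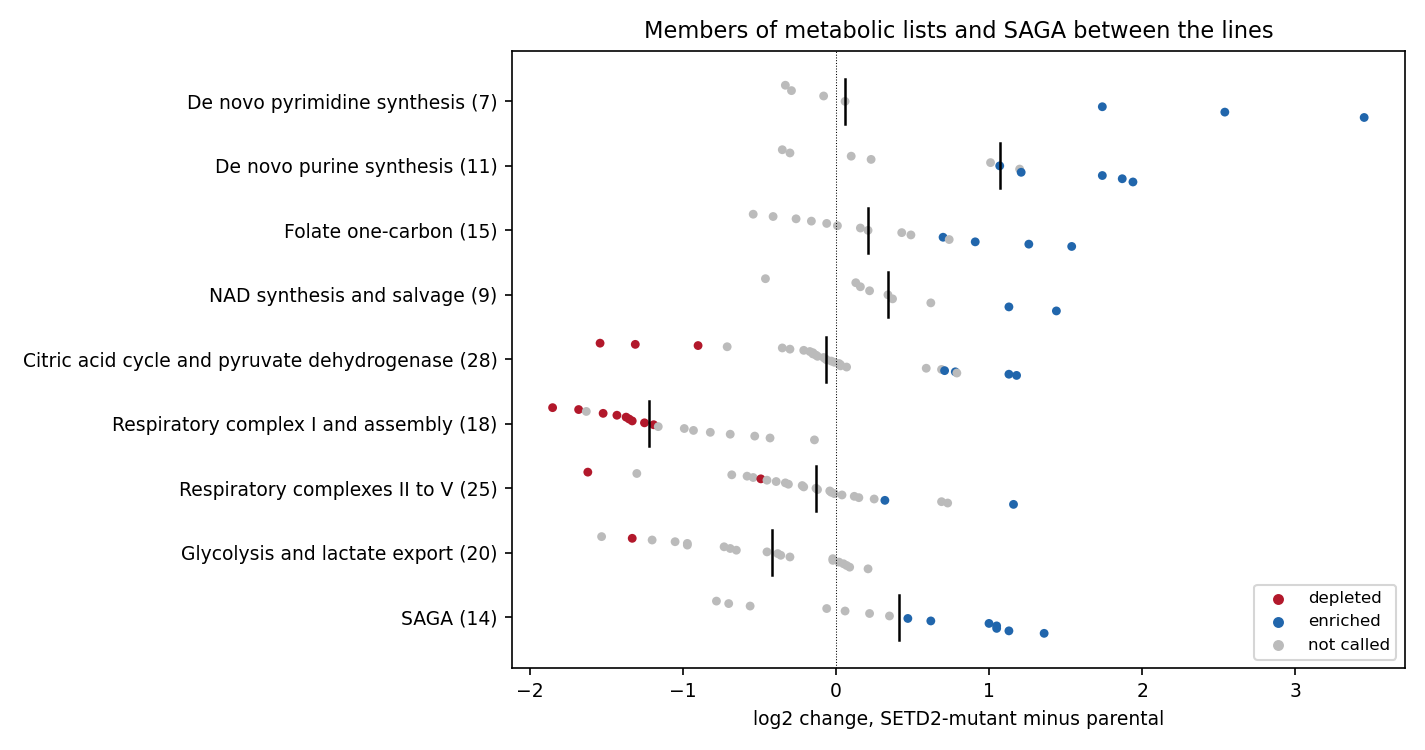
Difference between the lines (x axis, log2, SETD2-mutant minus parental) of each measured member of 9 lists, with the number of members in brackets; red points are depleted, blue points enriched and grey points uncalled genes, and each bar is the list's median. Complex I lies to the left with a median of −1.22, purine synthesis to the right with a median of 1.07, and the citric acid cycle list has calls at both ends.

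Ubiquitin ligases of the cullin family were depleted in 3 of 8 measured genes, beside 1.28% of all genes tested, and 0 were enriched. The list's median was −0.17, and 0.05 at equal essential-gene dropout by limma. Before adjustment 4 of the 8 had an RRA p below 0.05 for depletion and 3 for enrichment. CUL5, a cullin scaffold, stood at −0.77 and −0.75 in parental and −3.18 and −2.58 in SETD2-mutant samples, a difference of −2.13 or 4.39-fold (SE 0.364, 10 of 10 guides down, adjusted p = 4.37e-06). KEAP1, the CUL3 adaptor that directs degradation of NRF2, the activator of antioxidant genes, stood at −0.33 and −0.22 against −1.92 and −1.6, a difference of −1.48 (SE 0.305, adjusted p = 1.17e-05). CUL3 itself stood at 0.08 and 0.14 against −0.95 and −0.89, a difference of −1.03 (SE 0.287, adjusted p = 0.0218). The CUL3 call by edgeR and RRA was lost without SETD2-mutant replicate 1 (0.072) or parental replicate 2 (0.0516).

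A list of brakes on mTORC1, the kinase complex that couples nutrients to growth, and on PI3K kinases had 2 of 7 genes depleted. None was enriched, and of all genes tested 1.28% were depleted. The list did not move as 1. In 4 of the 7 both SETD2-mutant samples lay below both parental samples and in 3 above, beside 38.9% and 26.9% of all genes. TSC1, which with TSC2 switches off the mTORC1 activator RHEB, stood at 0.43 and 0.61 in parental and −1.2 and −1.19 in SETD2-mutant samples, a difference of −1.67 (SE 0.42, adjusted p = 0.00305). NPRL2, of the GATOR1 complex that restrains mTORC1 when amino acids are scarce, stood at 0.65 and 0.66 against −1.1 and −0.67, a difference of −1.51 (SE 0.265, adjusted p = 4.67e-05). Guides of both genes thus stood above the library in parental cells and below it in SETD2-mutant cells. AKT1S1, an mTORC1 inhibitor too, stood at −1.09 and was not called. CSK, the kinase that holds SRC family kinases inactive, had the same form, with 0.68 and 0.71 in parental and −0.6 and −0.84 in SETD2-mutant samples, a difference of −1.36 (SE 0.219, adjusted p = 9.27e-05 by edgeR and RRA). CSK lies in a stretch of chromosome 15 with lower values in the SETD2-mutant line, where its 40 neighbours had a median of −0.28.

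NF2, which restrains growth through the Hippo pathway, had the highest mean change from library in SETD2-mutant samples of the 7090 genes tested. It stood at 1.21 and 1.42 in parental and at 2.48 in each SETD2-mutant sample, a difference of 1.16 (SE 0.381, 9 of 10 guides up, adjusted p = 8.12e-09), and was the 1 gene enriched of 8 in the Hippo list. Among 12 cyclin-dependent kinases and cyclins 3 were enriched, beside 1.03% of all genes tested, and 0 depleted. CDK4, which drives entry into S phase, stood at −1.42 and −1.51 against −0.28 and −0.25, a difference of 1.21 (SE 0.327, adjusted p = 2.19e-05). Its paralogue CDK6 differed by 0.63 (SE 0.123, adjusted p = 0.00159), a call lost without parental replicate 2 (0.076 by edgeR and RRA). Guides of NF2 stood above the library in both lines, and those of CDK4 were below the library by less in SETD2-mutant than in parental samples.

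Other calls fell outside these groups. RARA, a retinoic acid receptor, stood at −0.05 and −0.1 in parental and −0.81 and −0.83 in SETD2-mutant samples, a difference of −0.75 (SE 0.138, adjusted p = 0.000707), and lost its call when the RRA limit was 0.1 (0.152). DPH1, which starts the diphthamide modification of elongation factor EEF2, stood at −0.56 and −0.92 in parental and −2.6 and −2.71 in SETD2-mutant samples, a difference of −1.97 (SE 0.351, 10 of 10 guides down, adjusted p = 0.000229). LEMD2, of the inner nuclear membrane, stood at −1.7 and −1.81 against −0.16 and −0.37, a difference of 1.51 (SE 0.269, adjusted p = 1.53e-05). MERTK, a receptor tyrosine kinase, differed by 0.55 (SE 0.0999) and the 14-3-3 protein YWHAE by 0.49 (SE 0.249), with an adjusted p by edgeR and RRA of 0.00122 and 0.00028. The survival factor MCL1 had a fitted difference of −2.8 with guides without counts in both SETD2-mutant samples, a difference of mean changes of −1.64 and an adjusted p of 0.0494, and it kept its call in 5 of the 18 RRA alternatives.

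Some genes with large mean differences were not called. On the depleted side these were TAZ at −2.64, MAT2A at −2.05, ATP13A1 at −2.03, SLC35B1 at −2.03 and TIMM23 at −2.0, with an adjusted p between 0.121 and 0.614 by edgeR and RRA. Each had at least 1 guide without counts in both SETD2-mutant samples, and their differences of mean changes lay between −1.76 and −1.16. On the enriched side they were USE1 at 1.5, EMC4 at 1.37, MYC and TMX2 at 1.3 each and EMC7 at 1.24, with an adjusted p of 0.06 for EMC4, 0.163 for TMX2, 0.273 for EMC7, 0.555 for USE1 and 1.0 for MYC. MYC had 2 guides without counts in both parental samples and USE1 had 1. The difference of mean changes was 0.26 for MYC and 1.1 for USE1. For EMC4, TMX2 and EMC7 it was 1.3, 1.33 and 1.15. EMC4 and EMC7 are subunits of the ER membrane complex. The cytosolic ribosome list had a median of −0.68 and 1 of 51 genes depleted and 0 enriched. In 35 of 51 both SETD2-mutant samples lay below both parental samples, beside 38.9% of all genes tested. At equal essential-gene dropout, by limma per guide, the median of the list was −0.13.

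In 13 lists edgeR and RRA called 0 of their 208 genes. Before adjustment 11 of these (5.29%) had an RRA p below 0.05 for depletion and 23 (11.1%) on the enriched side, beside 7.53% and 6.84% of all genes tested. By limma on gene means 45 (21.6%) were lower and 36 (17.3%) higher, beside 24.4% and 14.6% of all genes. Homologous recombination genes had a median of 0.17, 12 of 19 had both SETD2-mutant samples above both parental samples and 0 had them below, with a range from −0.74 to 0.43. Mismatch repair genes had a median of 0.2, with 6 of 7 above and 0 below. With dummyguide scaling the medians were 0.03 and 0.05. The 60 orphan receptors of the GPR family had a median of −0.03, with 22 below and 11 above. Of all genes tested, 38.9% had both SETD2-mutant samples below both parental samples and 26.9% had them above.

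Differences also varied with chromosome position. On chromosome 18 the median of 101 genes was 0.158; 58.4% had both SETD2-mutant samples above both parental samples and 12.9% below, against 26.9% and 38.9% of all genes tested. The 50 genes there whose 40 neighbours had a median above 0.2 lay between 316737 and 45752520 (RefSeq table of GRCh38), with a neighbour median of 0.23. On chromosome 15 the 69 genes with a neighbour median below −0.2 lay between 63321378 and 82986157, and their neighbour median was −0.28. Chromosome 16 had a median of −0.123 over 267 genes. The copy number of these regions in the lines was not tested.

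Calls on these chromosomes were read against their neighbours. INO80C, of the INO80 remodeller, differed by 0.67 and DSC3, a desmosomal cadherin, by 0.63, and both lie on chromosome 18. The fit centred on neighbours used limma per guide in place of edgeR. In it both lost their call (0.44, adjusted p = 0.48 and 0.41, adjusted p = 0.347, by limma and RRA). By limma per guide without centring both kept it. DSC3 also lost it without SETD2-mutant replicate 1 (0.129), SETD2-mutant replicate 2 (0.125) or parental replicate 2 (0.116). Between the bounds of the chromosome 15 stretch lay 5 called genes. The depleted CSK and IDH3A and the enriched MORF4L1 kept their call when centred in this way. PIAS1, a SUMO ligase, moved from −0.89 by edgeR to −0.58 centred by limma (adjusted p = 0.201 by limma and RRA). The deubiquitinase USP3 moved from −1.16 to −0.92 (adjusted p = 0.109), and both genes lost their call. By limma per guide without centring both kept it. Their calls and that of MORF4L1 also rested on single samples. PIAS1 lost it without SETD2-mutant replicate 1 (0.0589), SETD2-mutant replicate 2 (0.0847) or parental replicate 1 (0.091), USP3 without SETD2-mutant replicate 1 (0.0835) or SETD2-mutant replicate 2 (0.565), and MORF4L1 without SETD2-mutant replicate 1 (0.0977), parental replicate 1 (0.0975) or parental replicate 2 (0.0668). LEO1, on chromosome 15 with a neighbour median of −0.06, lies outside that stretch.

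**Figure D5:**
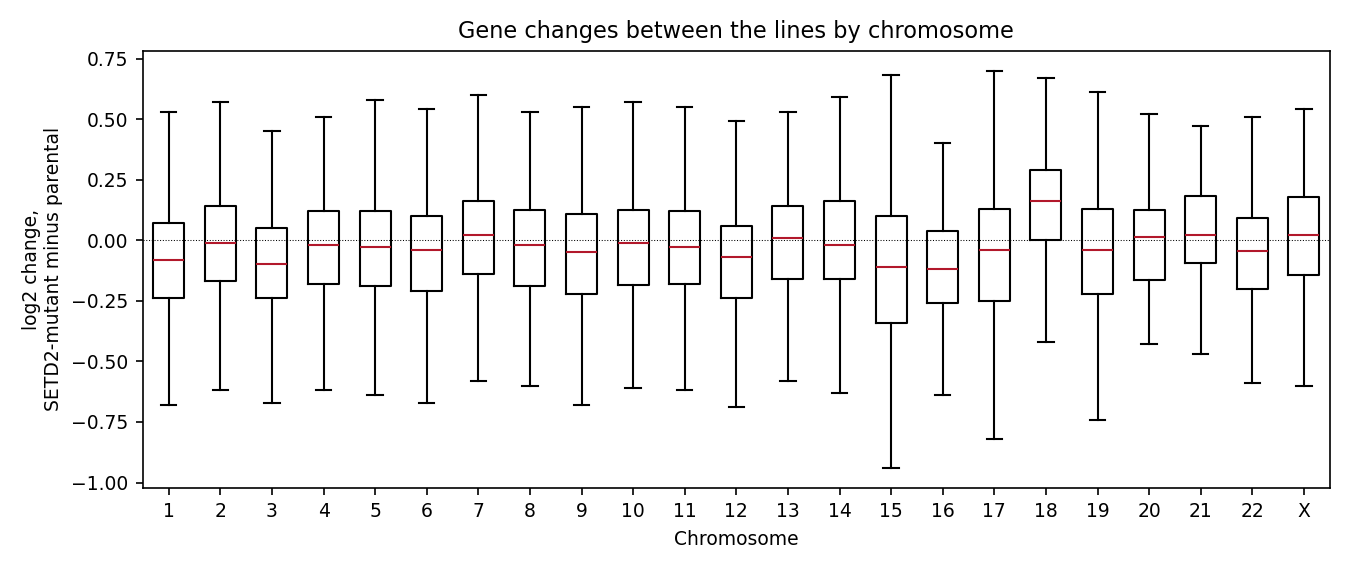
Difference between the lines (y axis, log2, SETD2-mutant minus parental) of the genes on each chromosome; boxes span the quartiles with the median in red, whiskers reach the last gene within 1.5 times the box, and genes beyond are not drawn. Chromosome 18 stands highest with a median of 0.158, and chromosomes 16 and 15 lowest with −0.123 and −0.113.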

How the data were processed

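The authors deposited raw counts per guide for the 6 samples, whole numbers with no scaling, and the submitters' processing notes name MAGeCK and hg38 without a role or version. The table holds 71626 guides for 7093 genes and 100 guides labelled dummyguide; 20 guide IDs are listed more than once. Of 71626 guides, 56 with a mean library count under 30 were set aside. Counts with TMM factors were fitted by edgeR 4.0.16 in R 4.3.3 (estimateDisp, robust glmQLFit, glmQLFTest) with all 6 samples in 3 groups. Guides were ranked by one-sided p and combined by RRA with a rank share limit of 0.25 and an exact null from uniform order statistics, then adjusted by Benjamini-Hochberg in each direction over 7090 genes. MAGeCK itself was not run. Log2 CPM used a prior count of 2. The test was tested on simulated data in which all 6 samples were given the same spread. The simulation therefore did not cover a lower spread of the library samples than of the cell samples. Genes were matched to a RefSeq table of GRCh38.p14: 6757 symbols were current, 316 matched by synonym and 17 did not match.

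The members, the 52 gene lists and the tests were chosen with earlier results of these data known. Any called gene could be named, with values per sample for the 25 of lowest RRA p in each direction, up to 4 uncalled members of each list, the 5 largest uncalled genes in each direction, and NSD1 and SETD2. A few genes covered by these choices are left out of the text. Replicates of a line differed by more than counting error, with a chi-square per degree of freedom of 14.1 in parental, 12.9 in SETD2-mutant and 1.37 in library samples. Alternatives covered scaling, filters, the test per guide (DESeq2 1.42.0, limma 3.58.1), the RRA limit, the samples fitted and centring on neighbours. The fits at equal essential-gene dropout and centred on neighbours used limma per guide with RRA.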

Additional observations from a re-analysis of the deposited data

How the results depend on the processing

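The 91 depleted and 73 enriched genes were recounted under 20 alternatives. By limma on gene means 1730 genes were depleted and 1035 enriched, and by summed counts per gene 1503 and 1417; these tests do not use the agreement between guides. Leaving out 1 sample in turn gave 63 to 89 depleted and 68 to 81 enriched genes. In the other alternatives the counts were 65 to 91 and 66 to 100. The main fit takes 1 estimate of the spread from all 6 samples, and library replicates differed less than those of the lines. With only the 2 lines in the fit, 62 of the 91 and 64 of the 73 kept their call. Of the genes called, 32 depleted and 42 enriched kept their call in all 18 alternatives based on RRA. No called gene changed direction in any alternative. The replicate numbers do not pair the samples: deviations of same-numbered samples had a correlation of −0.003 across genes. With the replicate block 88 genes were depleted and 84 enriched. The lowest depth, 25082426 counts, was that of SETD2-mutant replicate 1; without it 61 of the 91 and 58 of the 73 kept their call. The causes of these shifts were not tested.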
